A study of Mus musculus with 5 samples.

Results

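Genes of the complement and coagulation cascades were examined in the liver of male wildtype C57BL/6N mice aged 5 to 6 months. The genes were chosen by symbol from a list of 42, and 38 of them had a probe set that the platform annotation assigned to 1 gene, out of 19938 genes measured in this way. C3, Cfd and Cpb2 had no such probe set and Klkb1 shared its probe set with other genes, so these 4 genes are not analysed here. Of the 38 genes, 3 encode the chains of C1q, 34 encode factors made mainly by hepatocytes, and Cfp, made by myeloid cells, was kept apart.

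All 5 mice belonged to 1 group. Each had received streptozotocin, which destroys pancreatic beta cells, by injection of 65 mg/kg on 5 days in a row, and afterwards chow with bezafibrate, an activator of the PPAR nuclear receptors, for 8 weeks. The chow held 0.25% or 0.5% bezafibrate and the injections were made at 10 to 16 weeks of age, but the sources used here do not say which of these applied to a given mouse. Livers without bezafibrate or without streptozotocin were not analysed here, so the values show how the genes differed among equally labelled mice and no effect of either compound. Streptozotocin is a toxin model of insulin deficiency, and whole liver mixes hepatocytes with Kupffer cells, endothelium and blood.

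Complement is a cascade of plasma proteins. C1q, the mannose-binding lectins or spontaneous activation start it, C4, C2, C3 and factor B form the convertases that cut C3 and C5, and C5b with C6, C7, C8 and C9 assembles the membrane attack complex. Coagulation runs from factor VII with tissue factor, or from the contact factors, through factors IX, X and V to thrombin, which turns fibrinogen into fibrin, and plasmin later dissolves it. Hepatocytes secrete most of these proteins, whereas C1q comes mainly from macrophages, which in liver are chiefly Kupffer cells. Several complement components and fibrinogen are known acute-phase proteins, and fibrates are known to lower plasma fibrinogen in humans.

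The upstream sequences of 6 genes are shown because these genes mark the contrasts described below: C1qb of the macrophage-made complex, C9 and C8b with the widest spread between mice, and the 3 neighbouring fibrinogen genes, which spread unequally. They come from RefSeq on GRCm38.p6 and give the 250 bases before the annotated start of the gene on its own strand. The windows are chr4:136886201-136886450 on the minus strand (C1qb), chr15:6445096-6445345 on the plus strand (C9), chr4:104766067-104766316 on the plus strand (C8b), chr3:83025903-83026152 on the plus strand (Fga), chr3:83049864-83050113 on the minus strand (Fgb) and chr3:83007474-83007723 on the plus strand (Fgg). Capitals mark matches, on either strand, to the core GTTAAT of HNF1, a hepatocyte transcription factor, to TTCNNNGAA of the STAT factors, and to GAGGAA of PU.1, a myeloid factor. The PU.1 match nearest the STAT match of Fgb overlaps it. The other motifs searched were CAAAGTCCA of HNF4, TGTTTAC of FOXA, a direct repeat of AGGTCA with 1 base between, as PPAR binds it, and TATAAA of the TATA box, none of which matched in these 6 windows, and TTNNGNAA of C/EBP, which is left unmarked.
C1qb: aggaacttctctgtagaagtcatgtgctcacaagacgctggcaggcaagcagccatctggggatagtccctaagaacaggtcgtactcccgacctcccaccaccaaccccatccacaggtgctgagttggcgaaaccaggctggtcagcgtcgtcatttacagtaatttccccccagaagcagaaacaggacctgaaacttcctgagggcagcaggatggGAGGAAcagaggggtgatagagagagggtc
C9: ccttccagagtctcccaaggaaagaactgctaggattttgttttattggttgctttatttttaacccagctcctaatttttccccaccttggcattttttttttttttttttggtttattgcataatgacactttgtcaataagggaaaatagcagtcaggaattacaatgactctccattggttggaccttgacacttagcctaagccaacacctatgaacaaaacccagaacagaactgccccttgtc
C8b: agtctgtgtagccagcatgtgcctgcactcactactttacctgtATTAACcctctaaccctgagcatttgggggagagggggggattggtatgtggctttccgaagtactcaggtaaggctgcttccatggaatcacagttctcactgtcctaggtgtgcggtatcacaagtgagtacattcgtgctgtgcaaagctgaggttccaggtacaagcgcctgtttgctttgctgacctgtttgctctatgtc
Fga: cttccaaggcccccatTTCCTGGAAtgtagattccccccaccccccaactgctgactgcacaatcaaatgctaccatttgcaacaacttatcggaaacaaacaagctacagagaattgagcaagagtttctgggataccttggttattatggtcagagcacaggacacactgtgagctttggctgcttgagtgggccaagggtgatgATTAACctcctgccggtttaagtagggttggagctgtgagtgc
Fgb: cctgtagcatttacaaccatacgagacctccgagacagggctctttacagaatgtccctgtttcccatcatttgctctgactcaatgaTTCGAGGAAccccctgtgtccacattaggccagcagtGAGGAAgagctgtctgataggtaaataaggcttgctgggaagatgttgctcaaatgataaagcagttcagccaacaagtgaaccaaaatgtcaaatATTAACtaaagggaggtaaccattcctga
Fgg: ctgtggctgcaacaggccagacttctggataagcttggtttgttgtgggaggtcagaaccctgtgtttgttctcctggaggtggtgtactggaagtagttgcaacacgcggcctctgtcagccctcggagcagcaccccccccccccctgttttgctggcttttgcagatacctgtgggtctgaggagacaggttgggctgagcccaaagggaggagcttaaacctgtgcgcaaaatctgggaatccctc

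The HNF1 core lay upstream of Fga, Fgb and C8b among these 6 genes, and of 11 of the 33 listed genes found in the promoter table, against 6.43% of all 32851 promoters of the same length. The 11 included Cfp, which is made by myeloid cells. The 6 windows printed and 19 of the 33 in all lay at the annotated start of the gene, and the rest of the 33 lay elsewhere. In Fga it began 43 bases and in Fgb 29 bases before the start, and Fgg had no match. The STAT motif lay upstream of 6 of the 33 genes (7.02% of all promoters), which were Masp2, C8a, F9, Pros1, Fga and Fgb. The PU.1 motif lay upstream of 4 (23.3%), which were C1qb, C1qc and the hepatocyte-made F7 and Fgb. The C/EBP motif matched in 15 (36.8%), FOXA in 2 (3.17%) and TATAAA in 3 (12.4%), while HNF4 and the PPAR direct repeat matched in 0 (0.384% and 0.0335%). A match describes letters in the window and not binding, and windows of different genes differ in base composition, which was not matched.

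Levels are log2 RMA values, so a difference of 1 is 2-fold in signal. Each liver was measured on 1 array with no technical repeat, so the spread between mice includes technical spread. Array medians lay between 6.22 and 6.31, and pairs of arrays correlated with Pearson's r of 0.971 to 0.993 across probe sets, which are not independent replicates. A background level, the 95th percentile of 1210 olfactory and vomeronasal receptor probe sets, lay between 5.59 and 6.07, with the highest value in mouse 4. Of these receptor probe sets 75.95% were highest in mouse 4. All 38 genes exceeded the background level in all 5 livers. Hepatocyte markers such as Alb (mean 13.64 ± 0.05, SD, n = 5) were bright.

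The livers differed in these genes in 2 recurring ways. Genes of the membrane attack complex were highest in mouse 3, and most other hepatocyte-made factors were lowest in mouse 5. Of the 6 genes of that complex 4 were lowest in mouse 4, but 36.5% of all genes were also lowest there. Of the 38 genes, 18 were highest in mouse 3, against 22.9% of 13336 genes tested, 16 in mouse 1, against 23.9%, and 0 in mouse 2, against 25.5%. The lowest value was in mouse 5 for 19 of the 38, against 21.6% of all genes, and in mouse 4 for 14, against 36.5%. Values of 35 of the 38 genes lay above the gene's own mean in mouse 3 (52.5% of all genes), 31 in mouse 1 (61.9%), 15 in mouse 2 (62%), 11 in mouse 4 (27.1%) and 6 in mouse 5 (47.4%). Mouse 3 was highest and mouse 5 lowest in 11 of the 38 genes (7.33% of all genes), and mouse 3 was highest and mouse 4 lowest in 6 (8.1%). Mouse 1 was highest and mouse 4 lowest in 8 (12.1%).

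**Figure D1:**
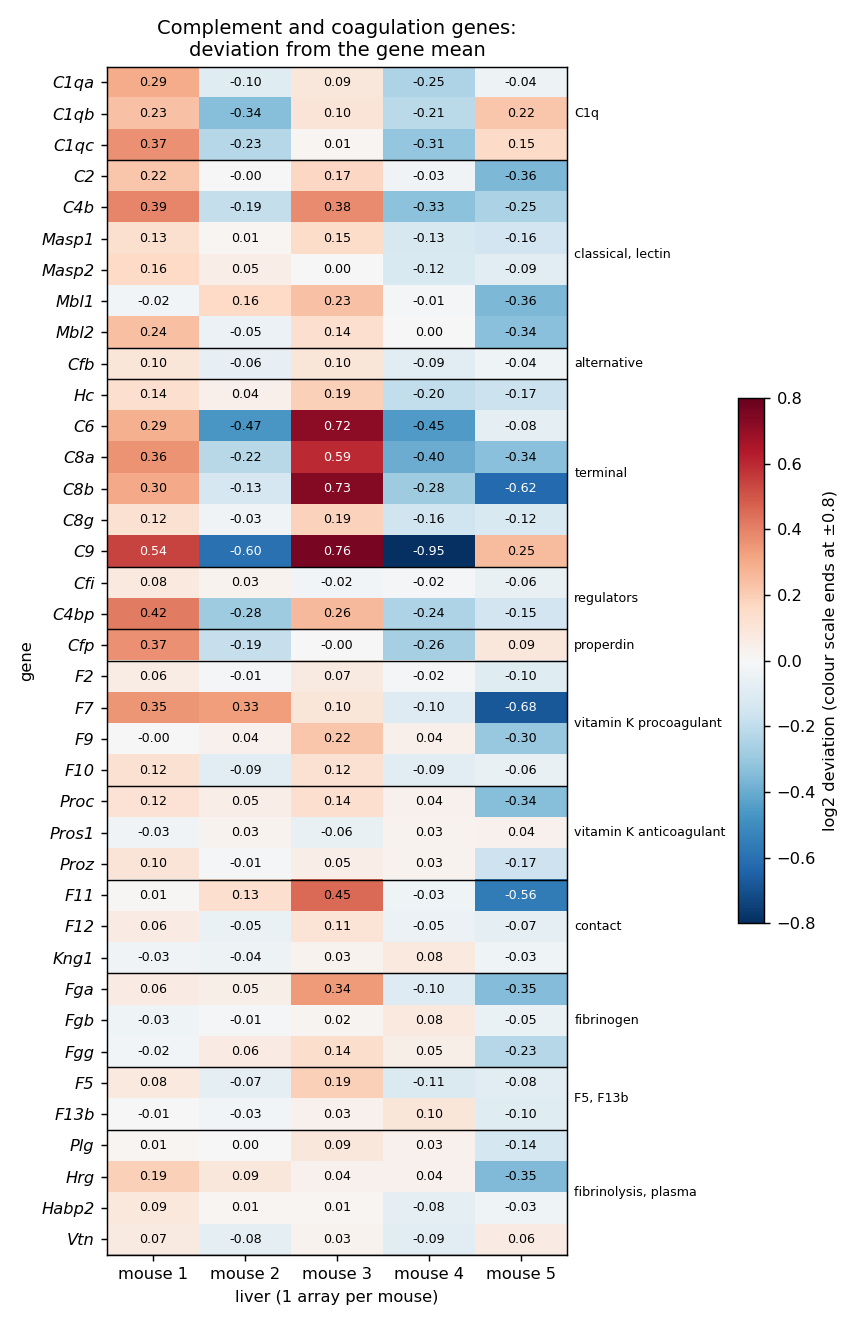
Heat map of the 38 genes (rows, grouped by role) in the 5 livers (columns). Each cell gives the log2 value minus the mean of the gene over the 5 mice. The terminal pathway is red in mouse 3, with C9 at 0.76, and the column of mouse 5 is mostly blue, with F7 at -0.68.

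To ask whether a gene differed more between mice than genes of its level usually do, its variance over the 5 arrays was set against the variance expected at that level by limma's robust trend (upper-tail F test). After Benjamini-Hochberg adjustment over 14586 probe sets, 0 of the 38 genes passed 0.05, against 0.357% of all probe sets tested (52) and 0.285% of genes. At an unadjusted p under 0.05 there were 14 of 38, against 6.38% of the 13336 genes (6.34% of probe sets). These 14 were C1qb, C1qc, C4b, Mbl1, C6, C8a, C8b, C9, C4bp, Cfp, F7, F11, Fga and Hrg. The median SD of the 38 genes was 0.18, and the median SD over all genes tested was 0.12. Relative to the SD expected at each level, the medians were 1.84 for the 38 genes and 0.965 for all genes, and the variance exceeded the expected one in 29 of 38 genes and in 47% of all genes.

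**Figure D2:**
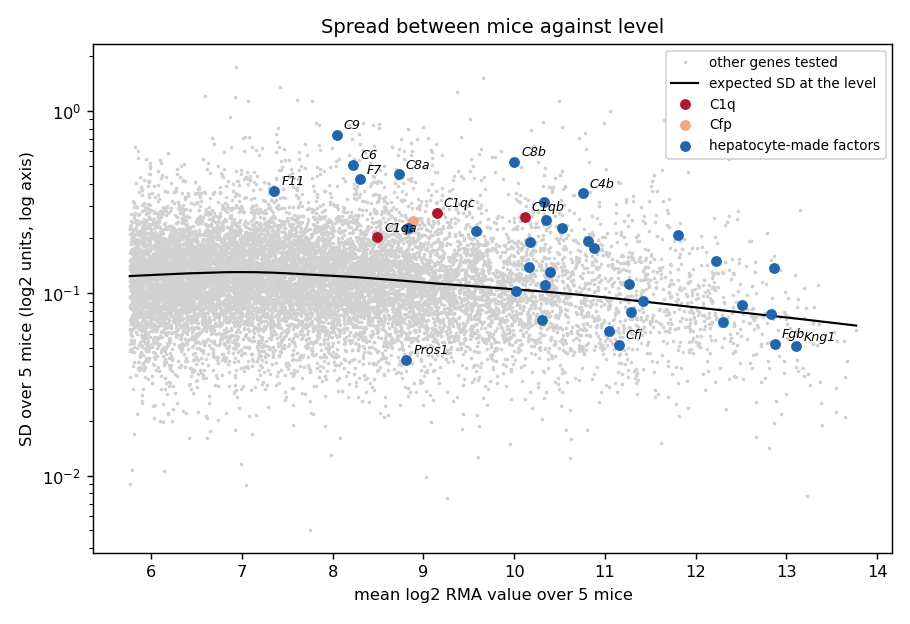
SD over the 5 mice (log axis, log2 units) against the mean log2 value of each gene. Grey points are the other genes tested, the line is the SD expected at each level, and coloured points are C1q, Cfp and the 34 hepatocyte-made factors. C9, C8b, C6 and C8a lie far above the line, and Pros1, Cfi, Fgb and Kng1 lie below it.

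The 3 genes of C1q, whose chains bind immune complexes and start the classical pathway, were each highest in mouse 1. C1qa had values of 8.79, 8.40, 8.58, 8.25 and 8.45 in mice 1 to 5 (mean 8.49 ± 0.20, SD, n = 5). C1qb had 10.35, 9.77, 10.22, 9.90 and 10.34 (mean 10.11 ± 0.26), and mice 1 and 5 were nearly equal. C1qc had 9.51, 8.92, 9.16, 8.84 and 9.30 (mean 9.15 ± 0.28). In every C1q gene mice 2 and 4 held the lowest values, although in C1qa mouse 5 (8.45) was close to mouse 2 (8.40). The spans were 1.45-fold for C1qa, 1.49-fold for C1qb and 1.60-fold for C1qc. The limma adjusted p of the variance was 0.969 for C1qa, 0.584 for C1qb and 0.625 for C1qc, so none of the 3 stood out after adjustment. The 3 genes are neighbours on chromosome 4.

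Cfp encodes properdin, the stabiliser of the alternative convertase and a product of neutrophils, monocytes and macrophages. It had values of 9.25, 8.70, 8.88, 8.62 and 8.98 in mice 1 to 5 (mean 8.89 ± 0.25, SD, n = 5, limma adjusted p = 0.770). Mouse 1 was highest and mice 2 and 4 lowest, as in C1qa and C1qc. Without mouse 1 the SD was 0.16. Here and below, leaving out the mouse furthest from the others lowers an SD by construction. The SD exceeded 1.5 times that without 1 mouse in 39.5% of the 38 genes and in 46.6% of all genes tested.

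On average, macrophage markers moved with C1q except in mouse 3. There all 3 C1q genes lay above their own means, but only 5 of the 15 markers did. The part of these markers in the C1q values was not tested. In bulk liver, fewer macrophages and less C1q RNA per macrophage cannot be told apart. The 15 Kupffer cell and macrophage markers had mean deviations of 0.32, -0.15, -0.07, -0.19 and 0.08 in mice 1 to 5. All 15 were tested, and 14 exceeded background in all livers. Mouse 1 was highest in 12 of the 15, against 23.9% of all genes. Cd14 and Fcer1g were highest in mouse 5, and Cd163 in mouse 3. Kupffer cell genes did not all vary alike: Clec4f, a lectin receptor, had 9.34, 9.13, 9.26, 9.12 and 9.33, whereas Adgre1, which encodes the F4/80 antigen, had 9.24, 8.43, 8.34, 8.20 and 8.47. In Clec4f mouse 5 was level with mouse 1, as in C1qb, and in Adgre1 mouse 1 stood alone. Cd5l, a secreted macrophage protein gene, had 10.03 in mouse 1 and 9.62 to 9.90 in the others, and the scavenger receptor gene Marco had 6.67 in mouse 1 and 5.91 to 6.25 in the others. Mouse 1 was also highest in 8 of 10 stellate cell genes (mean deviation 0.13 there) and 7 of 10 endothelial genes (0.12), against 23.9% of all genes. The endothelial gene Clec4g was lowest there. Over 4 platelet genes the mean deviation in mouse 1 was 0.19. For genes with means above background, it was -0.04 over 4 neutrophil genes and 0.01 over 3 lymphocyte genes. Of 10 neutrophil genes 2 and of 8 measured lymphocyte genes 1 exceeded background in all livers, and the 6 adipocyte genes above background had a mean deviation of -0.0065 in mouse 1 and 0.03 in mouse 5, with single genes going both ways (Fabp4 -0.36 and Retn 0.15 in mouse 1). The C1q mean minus the Kupffer cell and macrophage marker mean was -0.03, -0.08, 0.14, -0.06 and 0.03 in mice 1 to 5.

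**Figure D3:**
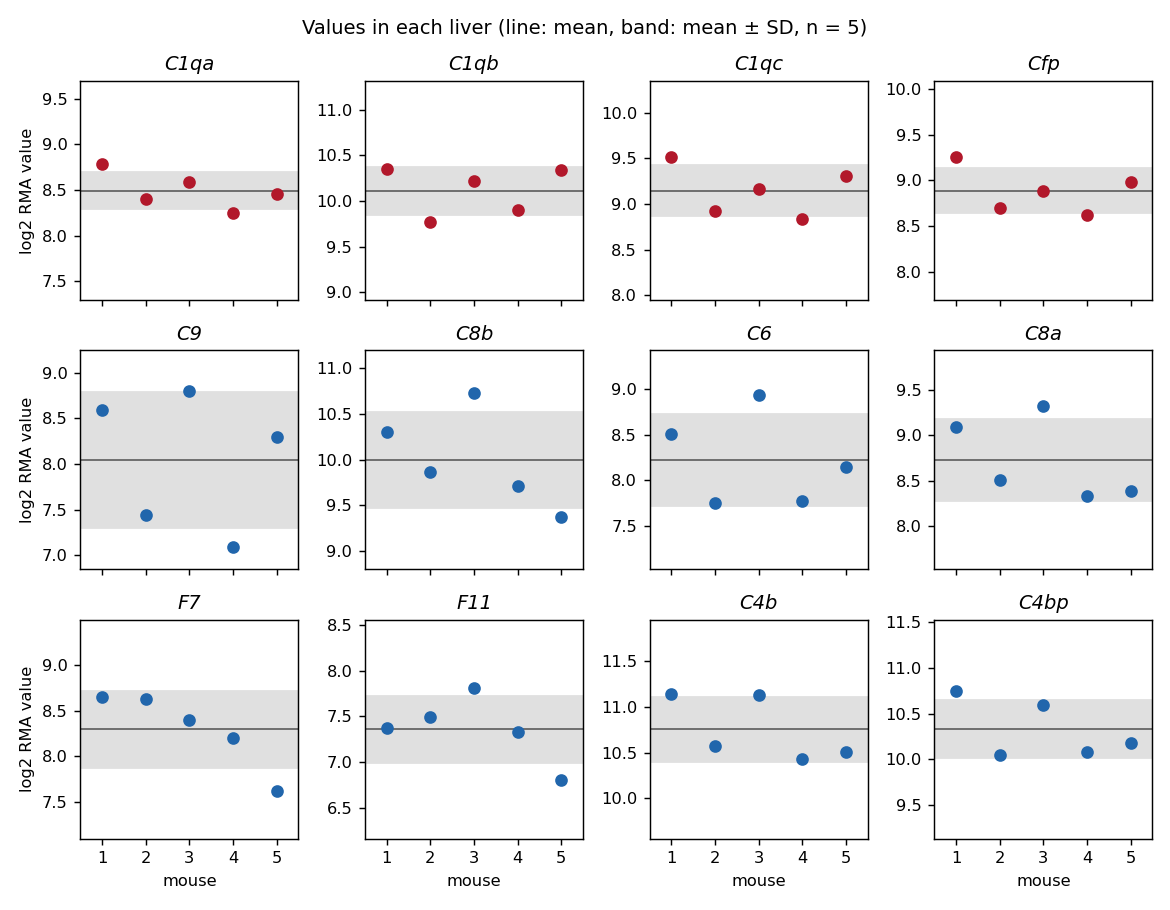
Log2 RMA values of 12 genes in each of the 5 livers (points), with the mean (line) and mean ± SD (band, n = 5). Red points are C1q and Cfp, blue points hepatocyte-made factors, and each vertical axis spans the same log2 range. C9 reaches from 7.09 in mouse 4 to 8.80 in mouse 3, and F7 is lowest in mouse 5 at 7.62.

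The hepatocyte-made genes of the classical and lectin pathways were highest in mouse 1 or mouse 3. C4b, whose product C4 forms part of the C3 convertase, had 11.14, 10.57, 11.13, 10.43 and 10.50 in mice 1 to 5 (mean 10.76 ± 0.35, SD, n = 5). Mice 1 and 3 were about 0.6 above the other mice, a 1.64-fold span, but the limma adjusted p was 0.238. C4b has a near-identical copy in the mouse genome, C4a, and the signal of its probe set may include both. C2, the protease that joins C4, had 9.05, 8.83, 9.002, 8.81 and 8.48 (mean 8.83 ± 0.23). In C2 mouse 5 was lowest, and without it the SD was 0.12.

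Mbl1 and Mbl2 encode the mannose-binding lectins that recognise microbial sugars, and both were lowest in mouse 5. Mbl1 had 10.51, 10.69, 10.76, 10.51 and 10.17 (mean 10.53 ± 0.23, SD, n = 5), with an SD of 0.13 without mouse 5. Mbl2 had 9.82, 9.53, 9.71, 9.58 and 9.24 (mean 9.58 ± 0.22), with an SD of 0.13 without mouse 5. The lectin-associated protease genes spread less, Masp1 with an SD of 0.14 and Masp2 of 0.11. These 6 genes deviated on average by 0.19, -0.0021, 0.18, -0.10 and -0.26 across the 5 livers, and 4 of the 6 were lowest in mouse 5.

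Cfb, which encodes factor B of the alternative convertase, varied little (11.42 ± 0.09, SD, n = 5, a 1.14-fold span). Cfb and C2 are adjacent and related genes, and the SD of C2 was 0.23. Of the regulators, Cfi, the protease that inactivates C3b and C4b, had 11.23, 11.18, 11.13, 11.13 and 11.09 in mice 1 to 5 (mean 11.15 ± 0.05, a 1.10-fold span). C4bp, which encodes the C4b-binding cofactor of factor I, had 10.75, 10.05, 10.59, 10.08 and 10.18 in mice 1 to 5 (mean 10.33 ± 0.32, limma adjusted p = 0.344). Mice 1 and 3 were again the highest, as in C4b.

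The terminal pathway had the widest spread of the complement genes. C9, whose product polymerises into the membrane pore, had 8.59, 7.45, 8.80, 7.09 and 8.30 in mice 1 to 5 (mean 8.04 ± 0.74, SD, n = 5). Mice 1, 3 and 5 lay far above mice 2 and 4, and the span was 3.28-fold. Its SD was 5.97 times the expected one, with a limma adjusted p of 0.0549. The adjusted p of C9 was 0.00814 with arrays centred on their medians, 0.038 without mouse 1 and 0.0104 without mouse 5, and ranged up to 0.358 over the settings tried.

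C8b, which encodes the beta chain of C8, had 10.30, 9.87, 10.73, 9.71 and 9.38 (mean 10.00 ± 0.53, SD, n = 5). It spanned 2.56-fold and mouse 5 was lowest, unlike C9, in which mouse 5 was above the mean. The limma adjusted p of C8b was 0.0888, and 0.0233 with arrays centred on their medians, with a range up to 0.457. C8a, the neighbouring gene of the alpha chain, had 9.09, 8.51, 9.32, 8.33 and 8.39 (mean 8.73 ± 0.45, limma adjusted p = 0.207). C6, which binds C5b, had 8.51, 7.75, 8.94, 7.77 and 8.14 (mean 8.22 ± 0.51, limma adjusted p = 0.168). In both genes mice 1 and 3 were the highest.

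The remaining terminal genes had the same order of mice as C8a with smaller differences. Hc, the mouse gene of C5, had 11.02, 10.92, 11.07, 10.68 and 10.71 (mean 10.88 ± 0.18, SD, n = 5). C8g, which encodes the lipocalin-like gamma chain of C8 and lies on another chromosome than C8a and C8b, had 12.35, 12.20, 12.41, 12.06 and 12.10 (mean 12.22 ± 0.15). All 6 terminal genes were highest in mouse 3, against 22.9% of all genes, and 4 of 6 were lowest in mouse 4, against 36.5%. Averaged over the pathway, the deviations were 0.29, -0.23, 0.53, -0.41 and -0.18 in mice 1 to 5, and 4 of 6 had an unadjusted p under 0.05, against 6.38% of all genes. Erythroid transcripts were also above their means in mice 1 and 3 only, but with mouse 1 highest. The 2 measured markers deviated on average by 0.45, -0.13, 0.32, -0.33 and -0.30, and their part in the terminal pathway values was not tested.

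Among the vitamin K-dependent procoagulants, F7 spread most. F7, the partner of tissue factor, had 8.65, 8.63, 8.39, 8.20 and 7.62 in mice 1 to 5 (mean 8.30 ± 0.42, SD, n = 5, limma adjusted p = 0.265). Mouse 5 was lowest, and without it the SD was 0.22. F9, the gene of the haemophilia B factor, had 10.17, 10.21, 10.40, 10.22 and 9.87 (mean 10.17 ± 0.19), with an SD of 0.10 without mouse 5. F10 (10.34 ± 0.11) and prothrombin, F2 (12.30 ± 0.07), had spans of 1.16-fold and 1.13-fold. F7 and F10 are adjacent on chromosome 8, and Proz follows F10.

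The vitamin K-dependent anticoagulants were also lowest in mouse 5 in 2 of 3 cases. Proc, which encodes protein C, had 10.93, 10.87, 10.95, 10.85 and 10.48 (mean 10.82 ± 0.19, SD, n = 5), and without mouse 5 the SD was 0.05. Proz, the gene of protein Z, a cofactor in the inhibition of factor X, had 10.12, 10.01, 10.08, 10.05 and 9.85 (mean 10.02 ± 0.10). Pros1, of protein S, the cofactor of activated protein C, had the smallest spread of all 38 genes, with 8.78, 8.84, 8.75, 8.84 and 8.85 (mean 8.81 ± 0.04, a 1.07-fold span). Ggcx, the carboxylase that modifies all these proteins, had 9.87, 9.75, 9.81, 9.37 and 9.56 and was lowest in mouse 4. Vkorc1, which recycles vitamin K, had 10.96, 10.87, 11.10, 10.81 and 10.64 and was lowest in mouse 5. Nqo1, a quinone reductase gene of the same list and the one with its largest SD (0.31), went the other way, with 8.64, 8.72, 8.20, 8.42 and 9.02 and mouse 5 highest. Of the 5 genes listed for the vitamin K cycle 4 were measured and tested, of which 0 passed the variance test and 1, Nqo1, had an unadjusted p under 0.05 (6.38% of all genes).

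Of the contact factors, F11 differed most. F11, which activates factor IX, had 7.37, 7.49, 7.81, 7.32 and 6.80 in mice 1 to 5 (mean 7.36 ± 0.37, SD, n = 5, limma adjusted p = 0.453). Mouse 3 was highest and mouse 5 lowest, a 2.01-fold span, and without mouse 5 the SD was 0.22. F12, the Hageman factor, had 11.29 ± 0.08, and Kng1, which encodes the kininogen that releases bradykinin, had 13.08, 13.07, 13.13, 13.18 and 13.07 (13.11 ± 0.05). The brightest probe set of an array had 14.00 to 14.12, and whether saturation narrowed the spread of the brightest genes was not examined.

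The 3 fibrinogen chains differed unequally although their genes lie side by side on chromosome 3. Fga had 10.41, 10.39, 10.69, 10.24 and 10.00 in mice 1 to 5 (mean 10.35 ± 0.25, SD, n = 5, limma adjusted p = 0.607). Its second probe set had 8.95, 8.83, 9.32, 8.41 and 8.19, with the same order of mice and an SD of 0.45. Fgg had 12.83, 12.92, 12.995, 12.91 and 12.63 (12.86 ± 0.14), and 0.07 was its SD without mouse 5. Fgb had 12.84, 12.86, 12.89, 12.95 and 12.82 (12.87 ± 0.05), a 1.10-fold span with mouse 4 highest. Mouse 5 was lowest in all 3 genes, by 0.05 below the mean in Fgb and by 0.35 in Fga. Of the factors around fibrin, F5, the cofactor of factor X, had 10.40 ± 0.13 and F13b, the carrier subunit of the fibrin crosslinker, 10.31 ± 0.07.

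Genes of fibrinolysis and of plasma regulators mostly had small spreads. Hrg, which encodes the heparin- and plasminogen-binding histidine-rich glycoprotein, was the exception with 12.001, 11.90, 11.85, 11.85 and 11.46 in mice 1 to 5 (mean 11.81 ± 0.21, SD, n = 5, limma adjusted p = 0.638). Mouse 5 was lowest, and without it the SD was 0.07. By Dixon's ratio, 1 mouse stood apart from the other 4 in 2 of the 38 genes, Hrg and Proc, against 5.65% of all genes. Plg, of plasminogen, had 12.51 ± 0.09 and was lowest in mouse 5. Habp2, a factor VII-activating protease gene, had 11.04 ± 0.06, and Vtn, of vitronectin, which blocks the membrane attack complex, had 12.83 ± 0.08 with mice 1 and 5 highest.

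The hepatocyte-made complement and coagulation genes thus had partly different orders of mice. The 15 complement genes had mean deviations of 0.23, -0.12, 0.31, -0.23 and -0.19 in mice 1 to 5, and the 19 coagulation, fibrinolysis and plasma genes had 0.06, 0.02, 0.11, -0.0090 and -0.19. Mouse 5 was lowest in 6 of the 15 complement genes and in 13 of the 19 others, against 21.6% of all genes. Mouse 4 was lowest in 7 of the 15 and in 4 of the 19, against 36.5%. The median SD was 0.23 for the complement genes and 0.10 for the others. The mean over the 11 hepatocyte markers was 0.02, -0.0097, -0.03, 0.03 and -0.01, while single markers went both ways, with Hnf4a at -0.23 in mouse 3 and Tat at 0.22 in mouse 4.

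Set against the 34 hepatocyte-made factors, C1q stood highest in mouse 5. Averaged over its 3 genes, C1q deviated by 0.30, -0.22, 0.07, -0.26 and 0.11 across mice 1 to 5, and the hepatocyte-made factors by 0.14, -0.04, 0.20, -0.11 and -0.19. Both were above their means in mice 1 and 3 and below them in mice 2 and 4, and in mouse 5 they had opposite signs. There C1qb (0.22) and C1qc (0.15) lay above their gene means, and C1qa (-0.04) lay slightly below its own. The difference, C1q minus hepatocyte-made factors, was 0.16, -0.18, -0.13, -0.15 and 0.30, and in mouse 5 only 1 of the 34 factors (C9) deviated more than the C1q mean. Without the terminal pathway, the 28 other factors deviated by 0.10, 0.0022, 0.13, -0.04 and -0.19, and the difference was 0.19, -0.22, -0.06, -0.22 and 0.30. With mouse 5 left out of the gene means, the difference was 0.24, -0.11, -0.05 and -0.08 in mice 1 to 4. The SD of the 5 mean deviations was 0.23 for C1q and 0.16 for the hepatocyte-made factors, and a mean over 3 genes evens out less than one over 34. The genes were chosen with earlier results known, so no test was made of this difference. Skeletal muscle markers above background were highest in mouse 1 (0.40, -0.17, -0.04, -0.05 and -0.15 over 5 genes), as C1q was, and their part in the values was not tested.

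**Figure D4:**
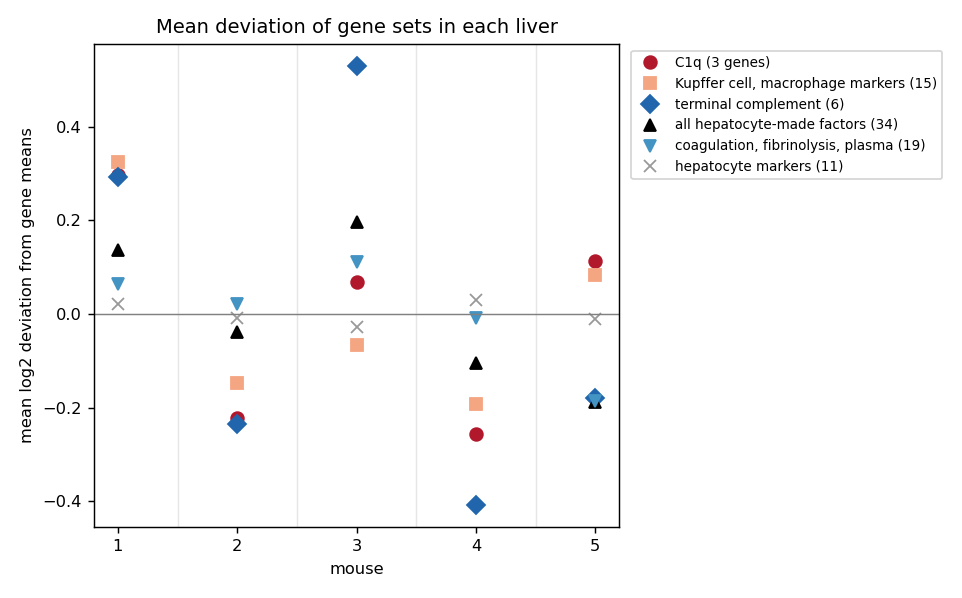
Mean log2 deviation from the gene means for 6 gene sets (symbols, number of genes in brackets) in each liver. C1q and the macrophage markers lie close together in mice 1, 2, 4 and 5, the terminal pathway reaches 0.53 in mouse 3, and in mouse 5 C1q (0.11) lies above 0 and the hepatocyte-made factors (-0.19) below.

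The wider pathway was read from other complement and coagulation genes. Of 23 other complement genes listed, 20 were measured and 15 lay above background, of which 0 passed the variance test and 6 had an unadjusted p under 0.05 (6.38% of all genes). The largest SDs were those of the anaphylatoxin receptor genes C3ar1 and C5ar1, of C1s1, a protease of the C1 complex, and of Cd55, a decay accelerator of convertases. C3ar1 had 8.18 in mouse 1 and 6.998 to 7.59 in the others. C5ar1 had 6.41 in mouse 5 and 5.69 to 6.03 in the others, and exceeded background in only 3 of the 5 livers. C1s1, which joins C1q in plasma, had 9.23, 8.98, 9.56, 8.77 and 8.85 in mice 1 to 5, with mouse 3 highest and mouse 4 lowest as in C8a. Cd55 had 6.89, 6.42, 6.26, 6.53 and 6.92. Vsig4, the Kupffer cell receptor for C3b, had 10.81, 10.42, 10.71, 10.54 and 11.08, and like C1qb was lowest in mouse 2.

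Of 22 other coagulation genes listed, 20 were measured and 16 lay above background. Of these 16, 0 passed the variance test (0.285% of all genes) and 0 had an unadjusted p under 0.05 (6.38% of all genes). Tissue factor, F3, had the largest SD of those above background, with 7.31, 7.03, 6.88, 6.68 and 6.80 in mice 1 to 5 (SD 0.24). F2r, the thrombin receptor gene, had 8.88, 8.79, 8.91, 8.59 and 8.42 (SD 0.20) and was lowest in mouse 5. The fibrinolytic activator gene Plat (mean 5.51, SD 0.25) lay below background on average, and the urokinase receptor gene Plaur near it (6.04 ± 0.18).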

How the data were processed

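Liver RNA of 5 mice was hybridised to Affymetrix arrays. The deposited table gives log2 values of probe sets. RMA and Affymetrix Expression Console 1.2 are named, per the submitters' processing notes, without further settings. RMA compresses differences near background.

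The table held 35556 probe sets, of which 21789 had 1 gene symbol. For a gene with several, the probe set with the highest mean was used. Variances (4 degrees of freedom are left by 5 arrays) were tested over 14586 probe sets whose mean exceeded 5.77, the 95th percentile of the receptor probe sets, with limma 3.58.1 in R 4.3.3 (lmFit, fitFDistRobustly with the mean as covariate) and Benjamini-Hochberg adjustment at 0.05. The prior degrees of freedom were 6.21. Mean deviations were computed in Python 3.11.15. The number of arrays limits the precision.

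The members, lists and tests were chosen with earlier results of these data known. Values in every mouse were given for C1q, Cfp, the 8 hepatocyte-made genes with the largest and the 4 with the smallest SD, and further members chosen after their values were seen. From the other lists, up to 4 genes with the largest SD and fixed macrophage and acute-phase genes were named. Alb, Hnf4a, Tat, Fabp4, Retn, Cd14, Cd163 and Clec4g were chosen after their values were seen. Alternatives were other normalizations, filters, variance fits, gene summaries and leaving out each mouse.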

Additional observations from a re-analysis of the deposited data

Results flagged for a closer look

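In 6 of 87 values examined (single genes, named marker genes and gene sets), 1 mouse stood apart from the other 4 by Dixon's ratio, the gap to the nearest mouse over the whole range, with a critical value of 0.71. Chance gives about 1 in 20 groups, and 5.65% of the 13336 genes tested exceeded the same value. Mouse 5 was apart as the lowest for Proc (ratio 0.792), for Hrg (0.714) and for the mean deviation of the vitamin K-dependent anticoagulants (0.809), to which Proc contributes. Mouse 1 was apart as the highest for Adgre1 (0.741), for Saa1 (0.838) and for the skeletal muscle markers above background (0.769). Saa1, a serum amyloid A gene, exceeded background only in mouse 1, with 6.64 there and 4.77 to 5.08 in the others.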

How the results depend on the processing

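The number of probe sets whose variance passed in limma was 52, and 142 with arrays centred on their medians, 29 when the background had to be exceeded on all arrays, 0 when probe sets without 1 symbol were included (1385 at an unadjusted p under 0.05), 31 with the mean over the probe sets of a gene, 24 with no trend of variance on level, 18 with a non-robust variance fit, and 0 (without mouse 4, 864 at an unadjusted p under 0.05) to 69 (without mouse 1) with 1 mouse left out. It was 34 without mouse 2 and 30 without mouse 3. Among the 38 genes 0 passed, 2 (C9 and C8b) with arrays centred on their medians, and 0 to 1 with 1 mouse left out (C9 without mouse 1 or mouse 5), with 14 at an unadjusted p under 0.05 in the main setting and 7 to 14 in the others. The cause of these changes was not tested. Of 494 values of single genes under the alternatives, 490 stayed on the same side of the threshold and 4, those of C9 and C8b named here, crossed it. The SD of the mean deviation was 0.94 for C1q and 0.71 for the hepatocyte-made factors with each gene divided by its SD, which changes the unit. With 1 mouse left out it lay between 0.19 and 0.27 for C1q and between 0.14 and 0.19 for the hepatocyte-made factors. The 45 differences between C1q and the hepatocyte-made factors by mouse kept their sign and moved by less than the SD between mice (0.22), but some moved by over 1.5 times. Not all of the 45 could move. Centring arrays on their medians shifts both sets alike, and the setting with all measured members repeated the main one. The mean over the probe sets of a gene changed only Fga. Without mouse 5, which shifts all other mice alike by construction, the difference was -0.11 in mouse 2 (-0.18 with all mice), -0.05 in mouse 3 (-0.13) and -0.08 in mouse 4 (-0.15), and with the median over genes it was -0.05 in mouse 3. The SD with all mice exceeded 1.5 times that without 1 mouse in 15 of the 38 genes and in 46.6% of all genes tested. No paired analysis was possible because all mice belong to 1 group. Signal near background limits what differences can be read, and compression at the top of the scale was not examined.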

Other observations

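Acute-phase genes did not share 1 order of mice with the complement genes. Of the 22 listed, 20 were measured and 4 of the 19 above background passed the variance test, against 0.285% of all genes tested: Lcn2, Orm2, Saa2 and Orm3. Lcn2, a bacterial siderophore-binding protein gene, had 10.93, 8.75, 8.12, 8.52 and 10.52 in mice 1 to 5 (SD 1.27, limma adjusted p = 0.0035), so mouse 3, the highest in all terminal complement genes, was the lowest. Orm2, of orosomucoid, had 11.47, 11.54, 9.37, 11.02 and 11.90 (SD 0.99, limma adjusted p = 0.00516), again with mouse 3 lowest. Saa2 had 9.67 in mouse 1 and 6.36 to 7.42 in the others.

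By contrast, Itih4 and Apcs, picked after their values were seen, had mice 1 and 3 as the highest. Itih4, which encodes a plasma inter-alpha-inhibitor heavy chain, had 11.68, 10.55, 11.27, 10.56 and 11.02 (SD 0.48, limma adjusted p = 0.0861). Apcs, of serum amyloid P, a pentraxin that binds C1q, had 9.69, 9.26, 9.81, 9.21 and 9.40 (SD 0.27). Mouse 5 came next in both, as it did in C9.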
